A study of Mus musculus with 19 samples.

Results

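The metabotropic glutamate receptors (mGlu receptors) of groups II and III, with the group I receptor gene *Grm5* beside them, were followed in SCA17 knock-in (KI) and WT mice across 3 brain regions, the cerebellum, the striatum and the prefrontal cortex. The members were chosen by name: *Grm2* and *Grm3* of group II, *Grm4*, *Grm7* and *Grm8* of group III, and *Grm5*, which makes 6 of the 41128 genes in the count table. All 6 were found and all 6 passed the filter on low counts. *Grm6* of group III is given by level.

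Spinocerebellar ataxia type 17 (SCA17) is caused by a longer glutamine tract in the TATA-box-binding protein TBP, a general transcription factor that every cell uses. Messenger RNA was sequenced from 3-month-old C57BL/6 mice. The KI mice carried the Tbp-105Q allele in the germline, after recombination of a floxed allele by EIIa-Cre, so it is present in all cells and is not limited to a neuron type. The controls were WT mice of the same age. The cerebellum had 4 KI and 3 WT libraries, and the striatum and the prefrontal cortex each had 3 KI and 3 WT libraries, 19 in all. Library totals ranged from 10639110 to 17431284 counts. Levels are given in CPM, a gene's counts relative to the library total on a per-million scale, after scaling between libraries. The tissues carried the markers of their labels: 10 granule cell markers summed to 3910 to 4950 CPM in the cerebellum and 59.5 to 293 CPM elsewhere, and 8 medium spiny neuron markers to 5100 to 10800 CPM in the striatum and 181 to 1060 CPM in the prefrontal cortex.

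mGlu receptors are G protein-coupled receptors that answer to glutamate over slower times than the ion channel receptors do. Receptors of groups II and III couple to Gi/o proteins, lower adenylyl cyclase activity and, at many nerve terminals, reduce transmitter release. Group I receptors couple to Gq and phospholipase C instead. In the cerebellum, mGlu4 sits on the parallel fibre terminals of granule cells, which synapse on Purkinje cells, and mGlu2 is found in Golgi cells. *Grm3* is expressed in astrocytes as well as neurons, mGlu7 lies at presynaptic active zones, mGlu5 is abundant in striatal and cortical neurons, and *Grm6* is best known from retinal bipolar cells.

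On the GRCm38 build, *Grm2* (ENSMUSG00000023192) spans bases 106643095 to 106656082 of chromosome 9 on the minus strand. *Grm3* (ENSMUSG00000003974) lies on chromosome 5 from 9485541 to 9725170, minus strand. *Grm4* (ENSMUSG00000063239) lies on chromosome 17 from 27422387 to 27521403, minus strand, and 11.9 Mb separate it from *Tbp*, the gene that carries the knock-in allele. *Grm5* (ENSMUSG00000049583) covers 87584168 to 88134907 of chromosome 7 on the plus strand. *Grm7* (ENSMUSG00000056755) and *Grm8* (ENSMUSG00000024211) share chromosome 6, the first on the plus strand from 110645581 to 111567230 and the second on the minus strand from 27275119 to 28135178. The exons of *Grm2* overlap the antisense gene *Gm28111* over 470 bases, 9.6% of their length, and those of *Grm7* overlap the antisense gene *Gm20387* over 130 bases, 2.21% of their length. Whether the counting used strand is not given in the sources used here, so reads in those stretches cannot be told apart from antisense reads.

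TBP binds the TATA box, and the study asked about the factor SP1, whose GC box is GGGCGG. The KI and WT prefrontal cortex libraries of the group II genes *Grm2* and *Grm3* did not overlap. Neither did those of 8.69% of all tested genes, and the edgeR adjusted p values of *Grm2* and *Grm3* there were 0.893 and 0.739. The upstream sequences of these group II genes are shown. They are the 250 bases before the transcription start in RefSeq on GRCm38.p6, on the strand of the gene, 5′ to 3′, and capitals mark each GGGCGG. The first is chr9:106656110-106656359 and the second is chr5:9725353-9725602, both on the minus strand.
Grm2 promoter: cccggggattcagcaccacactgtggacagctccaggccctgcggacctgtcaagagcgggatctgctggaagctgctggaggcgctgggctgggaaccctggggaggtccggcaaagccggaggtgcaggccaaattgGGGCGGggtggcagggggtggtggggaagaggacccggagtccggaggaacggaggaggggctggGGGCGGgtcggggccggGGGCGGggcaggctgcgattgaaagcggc
Grm3 promoter: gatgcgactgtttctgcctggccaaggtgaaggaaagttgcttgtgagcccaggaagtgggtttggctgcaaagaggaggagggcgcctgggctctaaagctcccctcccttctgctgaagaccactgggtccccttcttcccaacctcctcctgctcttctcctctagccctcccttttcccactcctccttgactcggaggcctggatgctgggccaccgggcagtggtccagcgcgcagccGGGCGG
The GC box was found 3 times in the *Grm2* window and 1 time in the *Grm3* window, where it forms the last bases before the start. It was also found 1 time in each of the 2 *Grm7* windows, which overlap and hold the same site. Of the 3 *Grm8* windows 1 held it 1 time, so it was not limited to the pair shown. RefSeq entries were at hand for 4 of the 6 members, *Grm2*, *Grm3*, *Grm7* and *Grm8*, with 7 windows among them. None of the 7 windows held TATAAA on either strand. Both motifs were searched on both strands. Among 32851 mouse promoters of the same table and length, 12.4% held TATAAA and 32.7% held GGGCGG. These are matches of letters in a window and say nothing of binding.

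In WT mice each region had its own receptor make-up. To compare genes with each other, CPM was divided by the length of the gene's exons in kb. That length joins the exons of all annotated transcripts, from 3.05 kb for *Grm3* (1 transcript) to 10.25 kb for *Grm5* (7 transcripts). The order and shares of the genes depend on it. Before the division *Grm3* and *Grm5* were at 209 and 183 CPM in the WT striatum. In the WT cerebellum *Grm4* had the highest level of the 6 at 49.2 ± 5.51 CPM per kb (SD, n = 3), above *Grm3* at 20.9 ± 2.31. *Grm2* followed at 7.61 ± 0.758, *Grm7* at 5.66 ± 0.652, *Grm8* at 1.25 ± 0.492 and *Grm5* at 0.393 ± 0.0738 CPM per kb. The libraries of no neighbours in this order overlapped.

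In the WT striatum the order began with *Grm3* at 68.7 ± 6.0 CPM per kb (SD, n = 3). *Grm7* at 18.4 ± 1.41 and *Grm5* at 17.8 ± 0.777 CPM per kb overlapped and stood next. *Grm4* at 10.8 ± 1.24 CPM per kb followed without overlap, and *Grm8* at 1.79 ± 0.285 and *Grm2* at 0.759 ± 0.512 came last. The WT prefrontal cortex also had *Grm3* first, at 59.7 ± 9.08 CPM per kb. There *Grm2* at 17.5 ± 1.34 and *Grm7* at 15.4 ± 1.45 overlapped, and *Grm5* at 8.62 ± 1.39 and *Grm4* at 5.24 ± 0.407 CPM per kb came next, with no overlap between them. *Grm8* was lowest at 3.37 ± 0.477. *Grm6* had 0 counts in 18 of the 19 libraries and 1 count in the remaining library, a WT striatum, and was not detectable at this depth.

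As shares of the summed per-length level of the 6 members, group III held 65.9% ± 3.43 of the WT cerebellum (SD, n = 3), most of it *Grm4* at 57.8% ± 3.94. Group II held 58.6% ± 2.46 of the WT striatum and 70.1% ± 3.73 of the WT prefrontal cortex, and *Grm3* alone made up 58.0% and 54.2% of these. The summed level of the 6 was 85.1 ± 5.48 CPM per kb in the WT cerebellum and 61.8 ± 4.29 in the KI cerebellum (n = 4), and the share of *Grm4* in the KI cerebellum was 47.5% ± 4.77. Shares of a sum are not independent of each other.

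**Figure D1:**
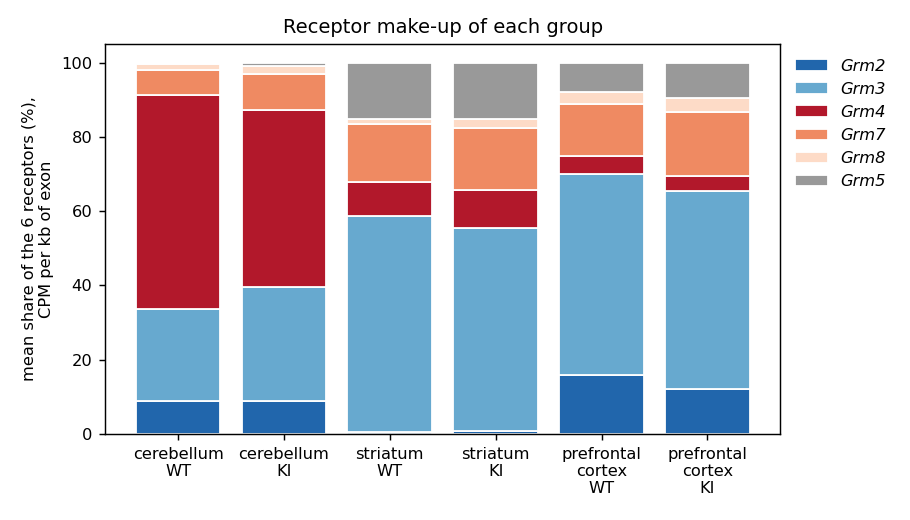
Mean share of each receptor gene in the summed level of the 6 (percent of CPM per kb of exon, y axis) in the 6 groups of region and genotype (x axis), n = 4 in the KI cerebellum and 3 elsewhere. Grm4 takes up 57.8% of the WT cerebellum and 47.5% of the KI cerebellum, and Grm3 is the broadest block in both forebrain regions.

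The differences between WT regions were tested gene by gene with edgeR's quasi-likelihood test over all genes, with Benjamini-Hochberg adjustment. Between cerebellum and striatum 5 of the 6 members passed an adjusted p of 0.05, where 56.5% of all 16841 tested genes did. All 6 passed between cerebellum and prefrontal cortex, where 52.0% of all genes did, and 4 of the 6 between striatum and prefrontal cortex, against 30.5% of all genes. With such backgrounds a regional difference is common among brain genes, and the sizes say more than the counts.

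*Grm4* was 4.57-fold higher in the WT cerebellum than in the WT striatum (log2 2.19, SE 0.17, edgeR adjusted p = 1.04e-08) and 9.4-fold higher than in the prefrontal cortex (log2 3.23, SE 0.179, edgeR adjusted p = 2.01e-10). It was the only member higher in the cerebellum than in both other regions. *Grm5* had the opposite pattern, 45.0-fold higher in striatum than in cerebellum and 21.8-fold higher in prefrontal cortex than in cerebellum. *Grm4* and *Grm5* were also higher in striatum than in prefrontal cortex, by 2.06-fold (edgeR adjusted p = 0.000182) and 2.07-fold (edgeR adjusted p = 0.000701).

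The group II genes parted between the forebrain regions. *Grm2* was 23.1-fold higher in the prefrontal cortex than in the striatum (log2 of striatum against cortex -4.53, SE 0.455, edgeR adjusted p = 1.61e-06), with the cerebellum between them at 2.29-fold below the cortex. Its paralogue *Grm3* was 3.28-fold lower in cerebellum than in striatum and 2.85-fold lower than in prefrontal cortex, while between striatum and prefrontal cortex the log2 difference was 0.20 with a 95% interval of -0.12 to 0.52 (edgeR adjusted p = 0.34). *Grm7* was likewise lowest in the cerebellum, 3.25-fold below the striatum and 2.72-fold below the cortex, and its log2 difference between striatum and cortex was 0.26 (95% interval 0.01 to 0.5, edgeR adjusted p = 0.0973). *Grm8* was highest in the prefrontal cortex, 2.69-fold above the cerebellum and 1.88-fold above the striatum. The *Grm8* difference between cerebellum and striatum, log2 -0.52 (95% interval -1.02 to -0.02), had an edgeR adjusted p of 0.066. It passed the threshold without cerebellum WT replicate 1 (log2 -0.89, edgeR adjusted p = 0.00215) and without striatum WT replicate 3 (log2 -0.64, edgeR adjusted p = 0.0441).

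Cortical markers were read beside the low values of *Grm2* in the striatum. Across the KI striatum libraries *Grm2* was at 6.83, 1.39 and 3.17 CPM, where the summed level of 6 cortical glutamatergic neuron markers was 154, 67.2 and 130 CPM. Across the WT striatum libraries *Grm2* was at 3.47, 1.34 and 6.34 CPM, beside cortical marker sums of 40.1, 16.4 and 227 CPM. Within each genotype the library with the most cortical marker RNA also had the most *Grm2*, and the part of cortical tissue in this was not tested.

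The RNA was sequenced to look for genes through which a TBP made everywhere could affect some regions more than others, and KI was compared with WT within each region. *Grm4* fell in the KI cerebellum. Its level was 147, 199, 160 and 198 CPM in the KI libraries and 316, 310 and 256 CPM in the WT libraries. Every KI library lay below every WT library. The fitted KI level was 40.3% lower, a fold of 0.597 (log2 -0.74, SE 0.15, 95% interval -1.07 to -0.42, edgeR adjusted p = 0.0212). In bulk tissue, fewer cells of a type and less RNA per cell cannot be told apart.

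**Figure D2:**
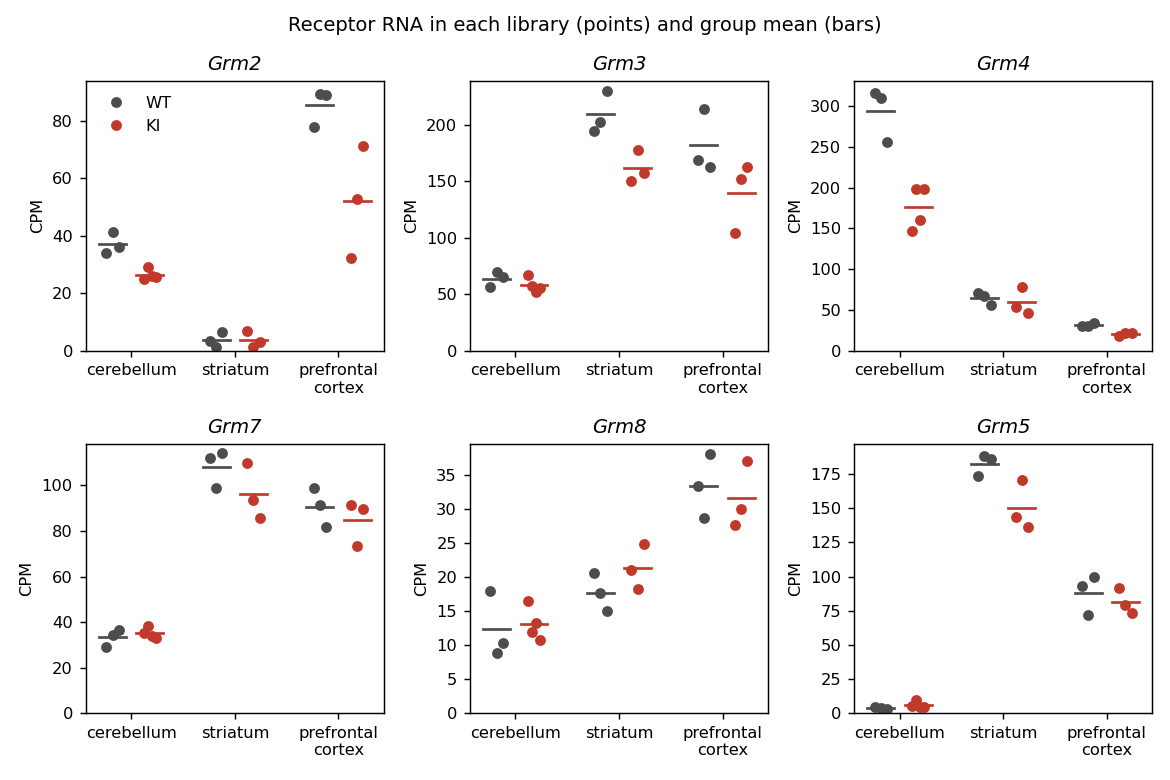
CPM of each receptor gene (y axis, linear from 0, with its own scale per gene) in every library, by region (x axis) and genotype, with points for libraries (WT grey, KI red) and bars for group means. The 4 KI cerebellum libraries lie at 147 to 199 CPM of Grm4, below the 3 WT libraries at 256 to 316.

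Of the 6 members, *Grm4* was the 1 called in the cerebellum, where 0.831% of all tested genes were called in either direction and 0.315% were called lower. Among the 53 genes called lower there, *Grm4* ranked 5 by WT level, 32 by p and 36 by the size of the fall, with a median log2 change of -0.91 over the 53. The call was sensitive to single libraries: leaving out KI replicate 1 or 3, or WT replicate 1 or 2, gave edgeR adjusted p values of 0.0763, 0.0709, 0.0851 and 0.117, with log2 changes between -0.83 and -0.67 over all 7 such fits. KI replicate 3 and WT replicate 1 also held 4550 and 1820 CPM of the choroid plexus gene *Ttr*, against 4.12 to 12.3 CPM in the others, and without both libraries the *Grm4* log2 change was -0.64 (edgeR adjusted p = 0.182).

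An exact two-sided permutation test of the log2 levels of *Grm4* in the cerebellum gave p = 0.0286, the smallest that 4 against 3 libraries allow, and p = 0.257 after Benjamini-Hochberg adjustment over the 18 tests of 6 genes in 3 regions. By the sex of the animals, as read from *Xist* and Y-linked counts, *Grm4* was at 147 to 160 CPM in the 2 KI and 310 to 316 CPM in the 2 WT cerebellum libraries with *Xist*. In the libraries with Y-linked RNA it was at 198 to 199 CPM in 2 KI and at 256 CPM in the 1 WT library. KI lay below WT in both sexes.

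Cerebellar granule cells express *Grm4*, and their markers were read beside it. None of 10 granule cell markers was called in the KI cerebellum, with 0 at an unadjusted p under 0.05, by edgeR, and their median log2 change was -0.23. The summed level of the 10 was 3910 to 4410 CPM in KI and 3910 to 4950 CPM in WT libraries. Of the 10 log2 values 7 were negative and 3 positive. *Gabra6*, the granule cell GABA-A receptor subunit, was at 1220 to 1400 CPM in KI and 1200 to 1300 CPM in WT. Another granule cell marker, *Cbln3*, was at 1020 to 1200 CPM in KI and 1250 to 1600 CPM in WT, without overlap. Per 1000 CPM of granule cell marker RNA, *Grm4* was at 37.6 to 45.9 CPM in KI and 51.8 to 80.9 CPM in WT libraries, without overlap. This ratio holds the same *Grm4* values and is no separate result. Of 8 Purkinje cell markers 1 was called, *Pcp2* (189 ± 26.8 CPM in WT, 84.8 ± 14.3 in KI, log2 -1.16), all 8 values were negative, and their sum was 3940 to 5460 CPM in KI against 6240 to 6680 CPM in WT. All 6 microglia markers had positive values and 4 were called higher in KI, with *C1qa* at log2 1.28. Of 8 astrocyte markers 1 was called, *Aldoc*, which was lower (log2 -0.62, edgeR adjusted p = 0.00912), and 7 had positive values. The astrocyte sum was 5570 to 6930 CPM in KI and 7310 to 7530 CPM in WT. Its mean was 6150 CPM in KI and 7400 CPM in WT. *Aldoc* alone held 2650 CPM of this in KI and 4060 CPM in WT, so the lower sum was that of *Aldoc*. The part of these cell types in the *Grm4* value was not tested.

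**Figure D3:**
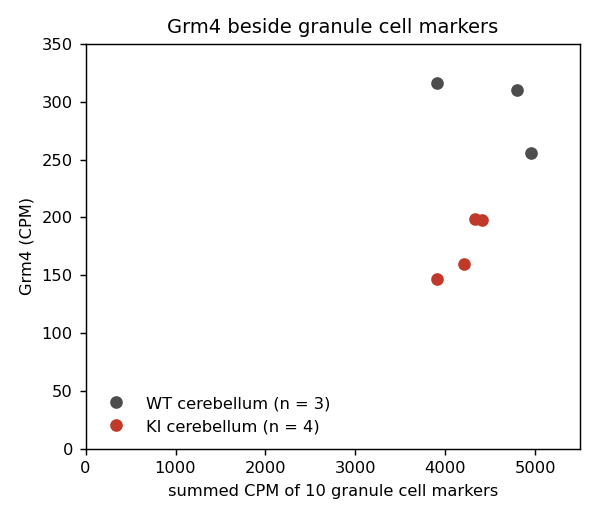
Grm4 (CPM, y axis) against the summed CPM of 10 granule cell markers (x axis) in the 7 cerebellum libraries, 1 point per library, both axes from 0. Marker sums of the genotypes overlap, at 3910 to 4410 CPM in KI and 3910 to 4950 CPM in WT, while the Grm4 levels do not.

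*Grm4* shares its chromosome with the knock-in allele. Of the 38 tested genes that start within 1 Mb of the start of *Grm4*, 0 were called by edgeR in the KI cerebellum. There, 0.831% of all tested genes were called, so few calls could come from 38 genes. Of the 38, 2 had an unadjusted p under 0.05, as did 1705 of all 16841, and their median log2 change over the 38 was -0.02. The part of the linked stretch of chromosome 17 in the *Grm4* value was not tested. *Tbp* itself was at 48.5 to 56.6 CPM in KI and 52.5 to 62.0 CPM in WT cerebellum libraries (log2 -0.14, edgeR adjusted p = 0.687). A gene count cannot show the length of the repeat, so *Tbp* does not check the genotype labels.

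The other members in the cerebellum were not called. *Grm2* was at 25.1, 29.1, 26.1 and 25.5 CPM in KI and 34.1, 41.3 and 36.2 CPM in WT libraries, which did not overlap. Its log2 change was -0.49 (SE 0.352, 95% interval -1.26 to 0.27, edgeR adjusted p = 0.71). The fit estimates 1 spread per gene over all 3 regions, and the cerebellum libraries fitted alone gave an SE of 0.0989 and an edgeR adjusted p of 0.0554. The groups of 2 of the 6 members, *Grm2* and *Grm4*, did not overlap in the cerebellum, where the groups of 12.3% of all tested genes did not.

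*Grm5*, barely present in this region, was at 5.69, 10.0, 4.37 and 4.72 CPM in KI and 4.82, 3.93 and 3.32 CPM in WT cerebellum libraries. The groups overlapped, and the log2 value was 0.62 (SE 0.249, 95% interval 0.08 to 1.15, unadjusted p = 0.0241, edgeR adjusted p = 0.388). Without KI replicate 2 it was 0.28 (SE 0.177, edgeR adjusted p = 0.745). *Grm3* had a log2 value of -0.14 (95% interval -0.44 to 0.17), *Grm7* of 0.08 (95% interval -0.16 to 0.32) and *Grm8* of 0.08 (95% interval -0.39 to 0.55), with edgeR adjusted p values of 0.833, 0.892 and 0.959.

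In the striatum no member was called by edgeR, where 0.582% of all tested genes were. An unadjusted p under 0.05 was found for 1368 of all 16841 tested genes and for 1 of the 6 members. That member was *Grm3*. It was at 150, 178 and 157 CPM in KI and 195, 203 and 230 CPM in WT striatum libraries (log2 -0.37, SE 0.149, 95% interval -0.69 to -0.05, unadjusted p = 0.0232, edgeR adjusted p = 0.473). *Grm5* was at 144, 171 and 136 CPM in KI and 174, 188 and 186 CPM in WT (log2 -0.28, 95% interval -0.71 to 0.14, edgeR adjusted p = 0.785). Neither of these genes overlapped between genotypes, 2 of the 6 members, and the groups of 14.1% of all tested genes did not.

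*Grm4* in the striatum was at 53.9, 78.4 and 46.1 CPM in KI and 70.4, 66.6 and 56.1 CPM in WT. The groups overlapped, with a log2 value of -0.12 (SE 0.166, 95% interval -0.47 to 0.24, edgeR adjusted p = 0.934). *Grm7* had a log2 value of -0.17, *Grm8* of 0.27 and *Grm2* of 0.05, with edgeR adjusted p values of 0.772, 0.839 and 0.998. The summed level of 8 medium spiny neuron markers was 5100 to 7390 CPM in the KI and 9450 to 10800 CPM in the WT striatum, with 0 of 8 called by edgeR, 1 at an unadjusted p under 0.05, and a median log2 change of -0.67. The part of medium spiny neuron RNA in the values of *Grm3* and *Grm5* was not tested.

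In the prefrontal cortex no member was called by edgeR, where 0.107% of all tested genes were. Of the 6 members 2, *Grm4* and *Grm3*, had an unadjusted p under 0.05, as did 998 of all 16841 tested genes. The log2 values of all 6 members were negative, with a median of -0.25 beside 0.0 over all tested genes. *Grm4* was at 18.3, 22.2 and 21.2 CPM in KI and 30.0, 29.8 and 34.1 CPM in WT libraries. Every KI library was below every WT library, as in the cerebellum (log2 -0.61, SE 0.176, 95% interval -0.99 to -0.23, unadjusted p = 0.00298, edgeR adjusted p = 0.51).

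*Grm2* was at 32.4, 52.9 and 71.3 CPM in the KI cortex libraries and at 77.9, 89.4 and 89.0 CPM in WT (log2 -0.71, SE 0.375, 95% interval -1.52 to 0.1, edgeR adjusted p = 0.893). *Grm3* was at 104, 152 and 163 CPM in KI and 169, 214 and 163 CPM in WT (log2 -0.38, SE 0.149, 95% interval -0.71 to -0.06, edgeR adjusted p = 0.739). Without KI replicate 1 the log2 values were -0.46 for *Grm2* and -0.21 for *Grm3*, and without WT replicate 2 that of *Grm3* was -0.25. The highest KI library of *Grm3* and its lowest WT library were equal to 3 digits. By the unrounded values the groups of 3 of the 6 members, *Grm2*, *Grm3* and *Grm4*, did not overlap, and neither did those of 8.69% of all tested genes. With 3 against 3 libraries an exact permutation test cannot go below p = 0.1. *Grm5*, *Grm7* and *Grm8* overlapped between genotypes and had log2 values of -0.11, -0.09 and -0.08, with edgeR adjusted p values of 0.992, 0.973 and 0.999.

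The cortex libraries differed in tissue markers. The 8 medium spiny neuron markers summed to 708, 1060 and 181 CPM in KI and 336, 274 and 821 CPM in WT cortex libraries. In the same order *Grm2* was at 32.4, 52.9 and 71.3 CPM in KI and 77.9, 89.4 and 89.0 CPM in WT. WT replicate 3 had an olfactory bulb marker sum of 417 CPM, against 6.87 to 37.6 CPM in the 5 other cortex libraries. The summed level of 8 astrocyte markers was 3510 to 4250 CPM in KI and 4450 to 4920 CPM in WT, with all 8 log2 values negative, a median of -0.28 and 0 called by edgeR, 1 at an unadjusted p under 0.05. The part of these tissues and cells in the cortical values of *Grm2*, *Grm3* and *Grm4* was not tested.

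**Figure D4:**
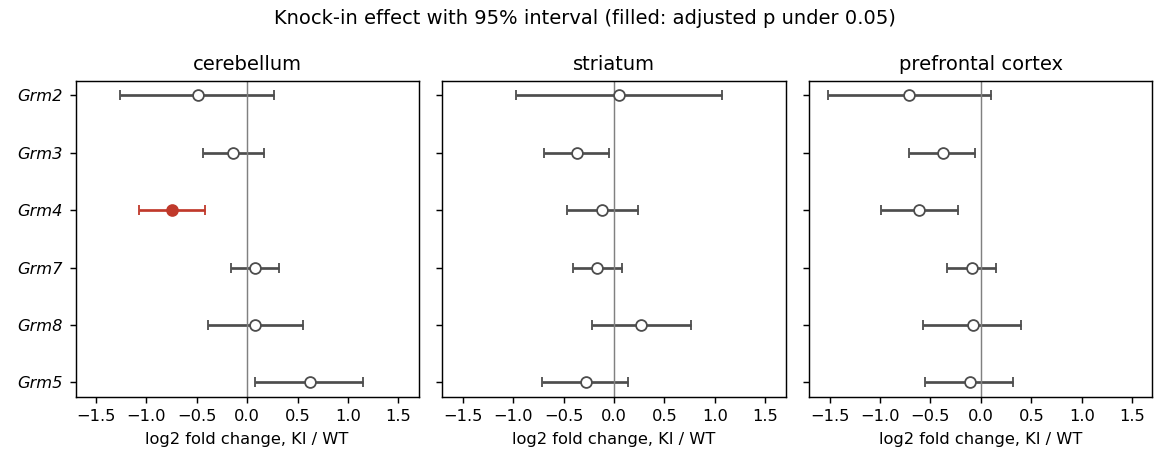
Log2 fold change of KI against WT (x axis) for each receptor gene (y axis) in the 3 regions, with points for the edgeR estimate and bars for its 95% interval, filled where the adjusted p is under 0.05. Grm4 in the cerebellum at -0.74 is the single filled point, and the intervals of Grm3 and Grm4 in the prefrontal cortex and of Grm3 in the striatum also lie below 0, that of Grm5 in the cerebellum above 0.

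Whether the KI effect differed between regions was tested as an interaction in the same fit. None of the 6 members was called in any of the 3 contrasts by edgeR. Of all tested genes, 0.0119% were called between cerebellum and striatum, 0.0178% between cerebellum and prefrontal cortex and 0% between striatum and prefrontal cortex, so these contrasts called few genes of any kind. At an unadjusted p under 0.05 there were 2, 1 and 0 members, and 1126, 1031 and 743 of all 16841 tested genes. The *Grm4* effect was 0.63 log2 units lower in the cerebellum than in the striatum (SE 0.224, 95% interval of the difference -1.11 to -0.14, unadjusted p = 0.0124, edgeR adjusted p = 0.547). Between cerebellum and prefrontal cortex the *Grm4* effects differed by -0.13 (95% interval -0.63 to 0.37, edgeR adjusted p = 0.991), so a fall of *Grm4* particular to the cerebellum was not shown. *Grm5* had a KI effect 0.90 log2 units higher in cerebellum than in striatum (95% interval 0.21 to 1.58, unadjusted p = 0.0116, edgeR adjusted p = 0.543) and 0.73 higher than in prefrontal cortex (unadjusted p = 0.035, edgeR adjusted p = 0.758).

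The signalling partners of these receptors were read from 10 lists with 104 genes, all of them tested. In the KI cerebellum 0 were called higher and 2 lower, with a median log2 change of -0.01, and 17 of the 104 had an unadjusted p under 0.05. Of all 16841 tested genes, 0.831% were called there and 1705 had an unadjusted p under 0.05. *Gng13*, a G protein gamma subunit, was at 74.4 ± 14.0 CPM in WT and 34.7 ± 4.8 CPM in KI (SD, n = 3 and 4, log2 -1.10, SE 0.143, edgeR adjusted p = 0.000418). *Plcb3*, a phospholipase C beta of group I receptor output, was at 77.9 ± 12.2 CPM in WT and 42.0 ± 3.34 CPM in KI (log2 -0.89, SE 0.116, edgeR adjusted p = 0.000418). Purkinje cells express both genes, and their marker sum was lower in KI, as given above. The part of Purkinje cells in the *Gng13* and *Plcb3* values was not tested.

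The 2 called genes belong to the 10 G protein beta and gamma subunits and the 12 genes of group I receptor output, and the 8 other lists had no called gene in the cerebellum. The 5 Gi/o alpha subunits had a median log2 change of 0.08, the 8 adenylyl cyclases of -0.12 with 7 negative, and the 4 GIRK potassium channel subunits of -0.17. The 15 RGS proteins, which shorten G protein signals, had a median of 0.17, and the 7 receptor kinases and arrestins, which end receptor signalling, of -0.14 with 6 negative. The 13 genes of presynaptic calcium channels and release had a median of -0.12 with 11 negative. The 19 scaffolds and partners had a median of 0.03 and the 11 genes of glutamate loading, clearance and metabolism of 0.01. Over the 104 genes, edgeR called 0 in the striatum, with a median log2 change of -0.08 and 17 at an unadjusted p under 0.05, where 1368 of all 16841 were. It called 0 in the prefrontal cortex, with a median of 0.02 and 3 at an unadjusted p under 0.05, where 998 of all 16841 were.

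Across the 19 libraries the members followed their regions, and the correlations of log2 CPM below describe that and share the same 3 regions. *Grm5* and *Grm7* were most alike (Pearson r = 0.98), *Grm3* went with *Grm7* (r = 0.95) and *Grm5* (r = 0.94), and *Grm4* ran against *Grm8* (r = -0.88), *Grm7* (r = -0.83) and *Grm5* (r = -0.81). *Grm2* and *Grm3*, paralogues of group II, had r = -0.33. Among all tested genes the closest to *Grm4* were *Ppfia4* (r = 0.978), *Rgs8* (r = 0.977) and *Epb41* (r = 0.975). Those closest to *Grm5* were *Camkv* (r = 0.995), *Nsg2* and *Ngef* (r = 0.993 each), and to *Grm7* *D430019H16Rik* (r = 0.987), *Arhgap33* (r = 0.986) and *Cyp46a1* (r = 0.984). *Grm2* was closest to *Syt13* (r = 0.978), *Rtn4r* (r = 0.975) and *Vsnl1* (r = 0.974). *Grm3* was closest to *Oprd1* (r = 0.977), *Ackr2* and *Rtn4* (r = 0.97 each), and *Grm8* to *Pcsk1* (r = 0.956), *Ppfibp1* (r = 0.938) and *Ptger3* (r = 0.928).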

How the data were processed

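Total RNA of each region was made into full-length cDNA libraries by the authors and sequenced. The deposited table holds raw counts of reads per Ensembl gene. A further deposited table holds a signal, the same counts divided by 1 size factor per library by the authors, and was used in an alternative alone. The submitters' processing notes name bcl2fastq 2.17.1.14, STAR 2.5.2b, HTSeq, DESeq2 1.10.1 and the build GRCm38.p3, while the methods of the study name Cufflinks and Cuffdiff. Whether the counting used strand is not given in the sources used here.

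The counts were tested with edgeR 4.0.16 under R 4.3.3. The filterByExpr filter, given the 6 combinations of region and genotype, kept 16841 of 41128 genes, and TMM scaled the libraries. 1 quasi-likelihood fit over all 19 libraries (13 residual degrees of freedom, common biological coefficient of variation 0.191) gave every contrast, with Benjamini-Hochberg adjustment over all tested genes and a threshold of 0.05. Intervals of 95% used the SE and those 13 degrees of freedom. Log2 CPM used a prior count of 2. Exact permutation tests were two-sided, on log2 CPM. The step was tested on simulated counts. GENCODE M21 had an entry for 40254 of the 41128 identifiers. Promoter windows came from RefSeq on GRCm38.p6.

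The genes named were the 6 members, *Grm6* by level, the called members of each list (at most 5 per comparison, by p), the 3 tested genes most correlated with each member, and called genes within 1 Mb of *Grm4*. 1 further gene of the rule is not reported here. Members and lists were chosen with earlier results of these data known. Replicate numbers were checked for pairing. Same-numbered striatum and prefrontal cortex libraries deviated together (r = 0.233 to 0.368 over 6 pairs), and 6 of 6 pairs matched in sex. These numbers may pair libraries of the same mouse, which the labels do not say. The main fit did not use this presumed pairing. KI and WT libraries of 1 region (r = -0.245 to 0.172) and cerebellum libraries with other regions (r = -0.104 to 0.163) shared only a number. Replicates differed by more than sampling noise. The labels name no separate batches. The edgeR p-values weigh a difference against the spread between these libraries, which the main fit takes over all regions. Counting limits cover counting error only. Alternatives were DESeq2 1.42.0, its size factors, other filters, single regions, replicate blocks, a sex covariate, limma 3.58.1 on the log2 of the signal plus a pseudocount of 1, and each library left out.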

Additional observations from a re-analysis of the deposited data

How the results depend on the processing

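Of 714 values of single receptor genes under alternatives, 691 kept their direction and side of the threshold, 10 reversed, 7 passed the threshold where they had not and 6 no longer passed it. The largest value that reversed was 0.19 in size. Leaving out libraries in turn, *Grm8* in the KI cerebellum ran from -0.11 to 0.45 (log2), *Grm7* there from -0.01 to 0.15, *Grm2* in the KI striatum from -0.68 to 0.65, *Grm4* in the KI striatum from -0.37 to 0.04 and *Grm8* in the KI prefrontal cortex from -0.21 to 0.02. The count of members called in the KI cerebellum ran from 0 to 1 over the same fits, and the *Grm4* log2 change from -0.83 to -0.67. Without the cerebellum libraries high in *Ttr*, an alternative chosen after seeing the data, the count was 0, the *Grm4* log2 change was -0.64, and the *Grm8* difference between the KI effects of cerebellum and striatum was 0.18. These fits have fewer samples. *Grm2* between WT cerebellum and WT prefrontal cortex then had an edgeR adjusted p of 0.0503, and *Grm8* between WT cerebellum and WT striatum passed the threshold under 7 settings, among them DESeq2 (adjusted p = 0.0428). The cause was not tested.

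A replicate block within regions joined KI and WT libraries that shared only a number. With it, the *Grm4* log2 change in the KI cerebellum was -0.81 (edgeR adjusted p = 0.0214). A block for the presumed pairs of striatum and prefrontal cortex libraries, in a fit of their own, was chosen after seeing the data. With it, the count of members called between these WT regions was 4. With a replicate block across regions the count between WT cerebellum and WT striatum was 6 in place of 5, since *Grm8* passed (edgeR adjusted p = 0.0315). The other member counts were as without a block. In the block across regions, too, the cerebellum libraries shared only a number with those of the other regions. Over all genes, DESeq2 called 175 higher and 161 lower in the KI cerebellum where edgeR called 87 and 53, 112 and 102 in the striatum (edgeR 66 and 32) and 33 and 19 in the prefrontal cortex (edgeR 15 and 3). Fitted alone, the cerebellum gave 84 and 88, the striatum 31 and 15 and the prefrontal cortex 0 and 0. The replicate block within regions gave 8 and 1 in the prefrontal cortex. For the differences of the KI effect DESeq2 called 26 and 14 genes between cerebellum and striatum (edgeR 2 and 0), 21 and 12 between cerebellum and prefrontal cortex (edgeR 3 and 0) and 2 and 9 between striatum and prefrontal cortex (edgeR 0 and 0). Low counts of *Grm2* in striatum and *Grm5* in cerebellum limit their precision.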
